A study of Arabidopsis thaliana with 6 samples.

Results

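AT5G55450 and AT1G62510 are a pair of lipid-transfer protein genes of Arabidopsis thaliana, the first with a higher and the second with a lower transcript level in plants mutated in CAMTA3. They were chosen by that difference between mutants and wild type, and they are 2 of 13286 loci that could be named on the array, each with 1 probe set. CAMTA3 encodes a transcription factor that binds calmodulin and is known to hold back salicylic acid-dependent defence. Whole RNA came from plants aged 3 weeks in 3 groups of 2 biological replicates, which were the mutant camta3-1, the mutant camta3-2 and the wild type. No treatment is given for any group, and the accession background, the kind of mutation and the tissue are not stated in the labels. Every value is a level on the log2 scale, on which a step of 1 is a 2-fold difference, and levels are compared between arrays for the same gene, never between genes.

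Lipid-transfer proteins are small secreted proteins. A conserved set of cysteines holds their helices around a cavity that can take up a lipid chain. They are known from the plant surface, where they take part in cuticle formation, and from defence. DIR1, a member of this superfamily, is needed in Arabidopsis for systemic acquired resistance. The EARLI1-like group, which also holds AZI1, carries a proline-rich stretch ahead of the lipid-binding domain, and AZI1 is known to prime defence. AT5G55450 belongs to the DIR1-like group and AT1G62510 to the EARLI1-like group in the lists used here.

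Array medians lay between 6.18 and 6.26 for the 22746 probe sets that were not controls. The correlation of arrays across probe sets was at least 0.986 for every pair. CAMTA3 itself was not analysed here, so the labels were not checked against the mutated gene. A locus is called measured here if the array annotation matched it to a probe set with 1 gene. Of the 22746 probe sets, 8730 had no gene in that annotation and 503 had several. A locus that is not called measured may therefore still have values on the array. Of the marker genes listed for tissues and cell types, few were measured. Rubisco activase (RCA), a chloroplast protein of green tissue, was at 13.83 to 14.00 on all arrays. The root genes EXPA7 and EXPA18 were at 4.33 to 4.63 and 4.28 to 4.68. The flower and pollen marker A9 was at 5.25 to 7.91, and the guard cell marker FAMA at 6.95 to 7.62. These levels do not rank the genes against each other. No marker of seed, trichome or phloem was measured, and none of the 7 epidermis markers, although several lipid-transfer proteins are known from that cell layer. In RNA of whole samples, fewer cells of a type and less RNA per cell cannot be told apart.

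AT5G55450 was at 8.39 and 8.38 on the wild-type arrays. In camta3-1 it was at 11.46 and 11.31, and in camta3-2 at 10.62 and 10.45. Both alleles were thus far above wild type with no overlap, and the camta3-1 arrays were above the camta3-2 arrays. All 4 mutant arrays were above both wild-type arrays for 7.89% of all probe sets, and the alleles did not overlap for 34.6%. Group means were 8.39 ± 0.0028 for wild type, 11.38 ± 0.11 for camta3-1 and 10.54 ± 0.12 for camta3-2 (SD, n = 2). The mean of both alleles was 2.57 above wild type, a 5.95-fold difference with a 95% interval of 2.33 to 2.81 on the log2 scale. In camta3-1 alone the difference from wild type was 3.00, or 7.98-fold, and in camta3-2 alone 2.15, or 4.44-fold. These differences from wild type chose the gene and are a description, and the interval is not adjusted for that choice.

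AT1G62510 was at 8.96 and 8.64 on the wild-type arrays. In camta3-1 it was at 7.22 and 6.56, and in camta3-2 at 7.32 and 6.86. All 4 mutant arrays were below both wild-type arrays, as for 15.8% of all probe sets, and the arrays of the alleles overlapped. Group means were 8.80 ± 0.23 for wild type, 6.89 ± 0.47 for camta3-1 and 7.09 ± 0.33 for camta3-2 (SD, n = 2). The mean of both alleles stood at a log2 difference of -1.81 from wild type, a 3.51-fold lower level, with a 95% interval of -2.31 to -1.31. The difference was -1.91 in camta3-1, a 3.76-fold lower level, and -1.71 in camta3-2, a 3.28-fold lower level. The spread within groups was wider than for AT5G55450, with a pooled SD of 0.36 against 0.094. As for AT5G55450, these values describe how the gene was chosen, and the interval is not adjusted for that choice.

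**Figure D1:**
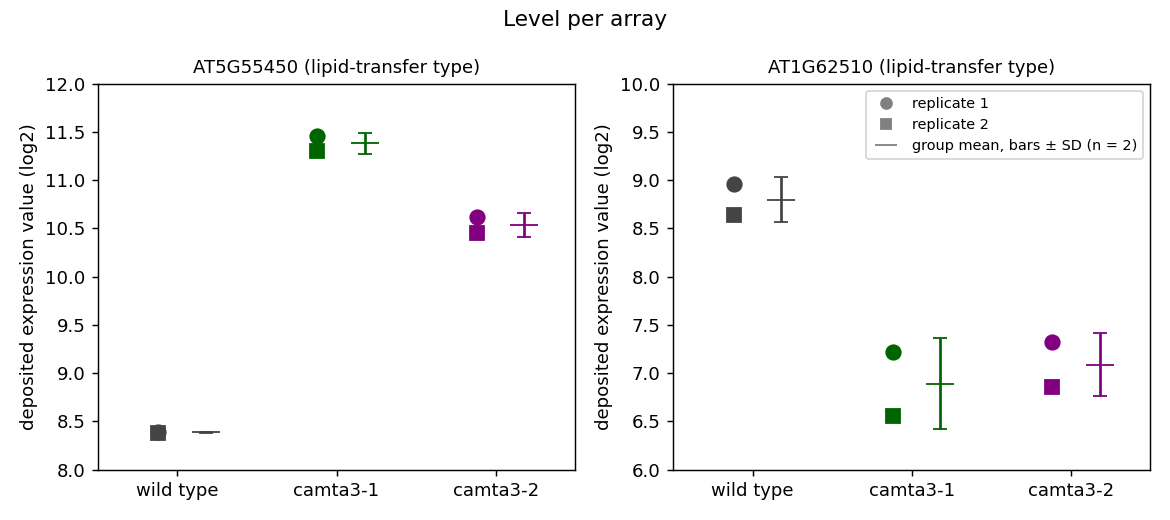
The panels plot the deposited log2 value on each array for AT5G55450 (left) and AT1G62510 (right), with circles for replicate 1, squares for replicate 2, and the group mean ± SD (n = 2) beside them. AT5G55450 is higher in both alleles, with camta3-1 above camta3-2, while AT1G62510 is lower in both alleles, whose arrays overlap.

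In the order of differences from wild type, both genes stood near the ends of the 13286 named loci. They were chosen by these differences, so their places are a description. AT5G55450 had the sixth highest difference for the mean of both alleles, between the malectin-like kinase gene AT5G59670 at 2.59 and the lectin gene AT5G18470 at 2.56. Over all 22746 probe sets it was in place 26. AT1G62510 had the second lowest difference, between AT4G17470 at -2.53 and the xyloglucan-modifying enzyme gene XTH19 at -1.75. Over all probe sets it was in place 6. In camta3-1 AT5G55450 was in place 3 among named loci, and in camta3-2 it was in place 17. AT1G62510 was in place 2 in camta3-1 and in place 3 in camta3-2. Both alleles share the wild-type arrays, so these places are not independent of each other.

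The choice of the genes did not use the contrast between the alleles, which was therefore tested. AT5G55450 was at a lower level in camta3-2 than in camta3-1, by a log2 difference of -0.85 with a standard error of 0.12, a 1.80-fold lower level. Its 95% interval, not adjusted for the number of probe sets, was -1.12 to -0.57. The difference did not pass over all probe sets (limma, adjusted p = 0.597). It had the fifth smallest p of 22746, and 1 probe set passed in this contrast, which is 0.00440% of those tested. The spread behind that p came from all 3 groups, and the wild-type arrays, with an SD of 0.0028, also served to choose the gene. This place is therefore not independent of the choice. With the arrays of the 2 alleles alone, the 95% interval was -1.16 to -0.53 (limma, adjusted p = 0.908). The arrays of the alleles did not overlap for this gene, as was the case for 34.6% of all probe sets. With 2 arrays against 2, an exact permutation test cannot give a two-sided p below 0.333. For AT1G62510 the log2 difference between the alleles was 0.20 with a standard error of 0.25 and a 95% interval of -0.38 to 0.78, and it did not pass (limma, adjusted p = 0.92).

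Lipid-transfer protein genes as a family were next examined, with 111 listed loci of which 48 were measured, the 2 chosen genes included. Of the other 46, none passed in any contrast. For both alleles together, 1.15% of all probe sets passed as higher and 0.255% as lower (limma). In camta3-1 alone 1.08% of all probe sets passed in either direction, and in camta3-2 alone 0.734%. At an unadjusted p under 0.05 (limma) there were 9 of the 46, or 19.6%, for both alleles together, against 13.4% of all probe sets. In camta3-1 and in camta3-2 alone there were 7 each, against 12.2% and 11.2% of all probe sets, and between the alleles 4, against 6.34%. With probe sets under the 40th percentile of means left out, 4 family genes were under 0.05 for both alleles together. In that fit 2097 of all probe sets were under 0.05, against 3044 without the filter (limma, unadjusted). An ordinary linear model called 0 probe sets on the whole array, so its 0 of the 46 says nothing about the family. The median log2 difference of the 46 genes was -0.08, against -0.05 for all probe sets. Of the 46, 40, or 87.0%, differed from wild type by under 0.5, against 95.5% of all probe sets. Several of the 46 were dim, such as AT2G15325 and AT1G05450 with wild-type means of 3.47 and 3.54, where array medians were 6.18 to 6.26. Differences of dim probe sets are shrunken, so a small one there does not show an unchanged level. All 4 mutant arrays were below both wild-type arrays for 9 of the 46, or 19.6%, against 15.8% of all probe sets, and above them for 2, or 4.35%, against 7.89%. Without camta3-1 replicate 1, AT4G22490 passed as the single gene of the 46, at 0.87 (limma, adjusted p = 0.048), in a fit in which 1.26% of all probe sets passed.

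**Figure D2:**
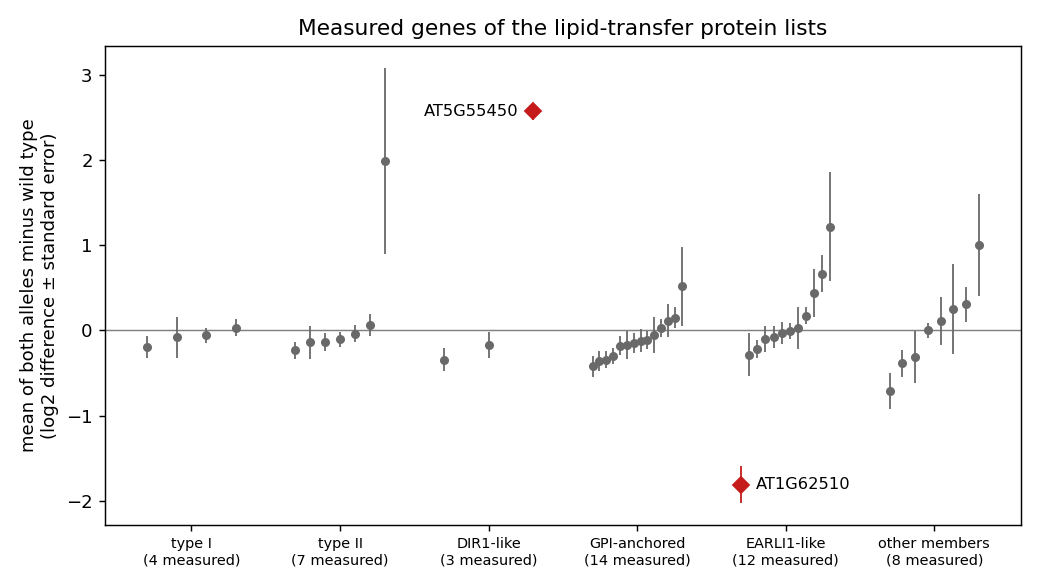
Each point is the log2 difference between the mean of both alleles and wild type for 1 of the 48 measured lipid-transfer protein genes, with its standard error from the limma fit, grouped by list, and red diamonds mark the chosen genes. AT5G55450, at 2.57, and AT1G62510, at -1.81, were chosen for their differences, and 40 of the other 46 genes lie within 0.5 of wild type.

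No measured relative of AT5G55450 in the DIR1-like group passed. Of 6 listed genes 3 were measured, and DIR1 itself was not analysed here. AT5G48490, a close relative of DIR1, was at 10.67 and 10.24 in wild type, 10.05 and 10.19 in camta3-1, and 10.13 and 10.09 in camta3-2. Its mutant arrays were all below its wild-type arrays, as for 15.8% of all probe sets. Its log2 difference of -0.34 for both alleles together did not pass (limma, adjusted p = 0.333). AT4G33550 had a log2 difference of -0.18 (limma, adjusted p = 0.696), and its groups overlapped.

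The relatives of AT1G62510 in the EARLI1-like group varied more, and none of the other 11 measured passed. The neighbouring gene AT1G62500, next to AT1G62510 in the gene order, was at 9.22 and 9.35 in wild type, 9.14 and 9.98 in camta3-1, and 8.79 and 9.35 in camta3-2. Its groups overlapped, and its log2 difference was 0.03 ± 0.24 (standard error; limma, adjusted p = 0.978). Where AT1G62510 was lower on the replicate 2 arrays of both alleles, AT1G62500 was higher on them.

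AT4G12490, a relative of AZI1 and EARLI1, was at 6.40 and 7.00 in wild type. It was at 9.27 and 7.04 in camta3-1 and at 8.49 and 6.88 in camta3-2. The replicate 1 arrays of both alleles were thus high and their replicate 2 arrays were near wild type. The log2 difference of 1.22 did not pass (standard error 0.64, limma, adjusted p = 0.483). AT4G12500, of the same group, was also higher on the replicate 1 arrays of both alleles, at 5.02 and 4.88, than on their replicate 2 arrays, at 4.23 and 4.19. AT4G22490 was above both wild-type arrays on all mutant arrays, at 8.87 to 9.68 against 8.52 and 8.53, as for 7.89% of all probe sets. Its log2 difference of 0.67 did not pass (limma, adjusted p = 0.247). AT4G22470 had a log2 difference of -0.28 (limma, adjusted p = 0.709). AT2G45180 and AT2G10940, both at levels above 12 on every array, had log2 differences of 0.17 and -0.08 (limma, adjusted p = 0.533 and 0.852).

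Genes of the remaining groups did not pass either. Type I proteins are the classical lipid-transfer proteins, and the 4 measured had log2 differences between -0.20 for AT2G18370 (LTP8) and 0.03 for AT2G15325 (LTP9), with AT5G01870 (LTP10) and AT4G08530 at -0.08 and -0.06. LTP1 to LTP7 were not analysed here. Of 7 measured type II genes, 6 lay between -0.23 and 0.07, with AT5G38195 at -0.23, AT1G48750 at -0.14 and AT3G18280 at -0.13. Among 14 measured genes whose proteins carry a membrane anchor of glycosylphosphatidylinositol, AT4G12360, AT2G27130 and AT5G09370 had log2 differences of -0.42, -0.36 and -0.34 (limma, adjusted p = 0.191, 0.252 and 0.197). The mutant arrays were all below wild type for these 3 genes and for AT5G13900. These 4 are 28.6% of the 14, against 15.8% of all probe sets.

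Several genes of the family separated the replicates of an allele rather than the mutants from wild type. The type II gene AT1G66850 was at 5.20 and 4.20 in wild type, 5.25 and 7.92 in camta3-1, and 4.83 and 8.76 in camta3-2. The replicate 2 array was high in each allele, and the replicate 1 arrays were within or near the wild-type range. Its log2 difference from wild type of 1.99 had a standard error of 1.09 and did not pass (limma, adjusted p = 0.505). The membrane-anchored AT4G14815 was at 4.73 and 4.92 in wild type, 4.40 and 6.11 in camta3-1, and 4.89 and 5.95 in camta3-2, again with the replicate 2 arrays high. Its log2 difference from wild type of 0.52 did not pass (limma, adjusted p = 0.708).

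A replicate 2 array that exceeded replicate 1 by over 1 in both alleles was found for 35 probe sets, 0.154% of all, and the opposite for 2 probe sets, 0.00879%, of which AT4G12490 was 1. The labels do not say whether arrays with the same number share a batch or day. AT5G55450 differed between the replicates by 0.15 in camta3-1 and 0.17 in camta3-2, with replicate 1 higher in each. AT1G62510 differed by 0.67 and 0.46, also with replicate 1 higher. Replicate 1 was above replicate 2 in all 3 groups for both genes, as for 18.7% of all probe sets. In wild type AT5G55450 differed between replicates by only 0.0039.

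Among other members of the superfamily, A9 (AT5G07230), known as a gene of the anther tapetum, was at 7.21 and 5.25 in wild type, 6.15 and 7.91 in camta3-1, and 7.33 and 7.53 in camta3-2. Both camta3-2 arrays were above wild type, camta3-1 overlapped with both other groups, and the replicates of wild type and of camta3-1 were far apart. A9 was the single measured gene of 5 flower and pollen markers, and its part in the differences between replicates was not tested. AT5G62080 was at 7.22 and 7.02 in wild type, 7.68 and 8.34 in camta3-1, and 5.64 and 7.83 in camta3-2. Its camta3-2 arrays were furthest apart. AT2G37870 was lower on all mutant arrays than in wild type, as for 15.8% of all probe sets. Its log2 difference of -0.71 did not pass (limma, adjusted p = 0.201). The differences for AT5G05960 and AT3G07450 were -0.39 and -0.31 (limma, adjusted p = 0.347 and 0.735). In camta3-1 they were -0.67 and 0.28, and in camta3-2 -0.11 and -0.90. Between the alleles, AT5G62080 was at -1.27, AT3G07450 at -1.18 and AT3G52130 at -0.85. These were at least as large as that of AT5G55450, but their standard errors were 0.61, 0.35 and 0.32, against 0.12 for AT5G55450. None passed (limma, adjusted p = 0.789, 0.778 and 0.778).

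**Figure D3:**
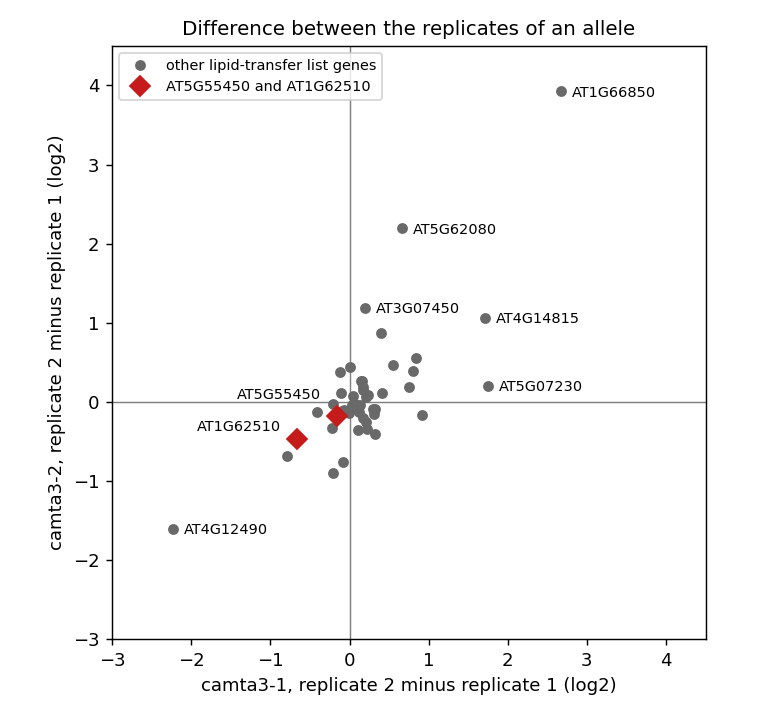
For each measured lipid-transfer protein gene, the difference of replicate 2 minus replicate 1 (log2) in camta3-1 is on the horizontal axis and that in camta3-2 on the vertical axis. AT1G66850 and AT4G14815 lie at the upper right and AT4G12490 at the lower left, with a difference over 1 in both alleles, while AT5G55450 and AT1G62510 (red diamonds) lie nearer to 0.

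Because of these arrays, the fit was repeated without both mutant arrays of one number, a choice made after seeing the data, with each allele left at 1 array that is assumed to vary like the wild type. The arrays left out were those on which genes named above had stood apart, so the calls of these genes restate those values. Without the arrays numbered 1, 5 of the 46 genes passed for the mean of both alleles (limma), where 3.02% of all probe sets passed, with AT1G66850 at 3.64, AT4G14815 at 1.21, AT5G62080 at 0.97, AT4G22490 at 0.96 and AT2G37870 at -0.92. Without the arrays numbered 2, AT4G12490 passed as the single gene of the 46, at 2.18, where 3.61% of all probe sets passed. In that fit AT5G62080 was at a log2 difference of -1.48 from wild type in camta3-2, and of -2.04 between the alleles. AT5G55450 was 2.49 to 2.65 above wild type in these 2 fits. AT1G62510 was at a log2 difference of -2.09 without the arrays numbered 1 and -1.53 without those numbered 2. Leaving out mutant arrays cannot turn the direction of either gene, since all 4 lie on one side of wild type.

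Neighbours in the genome were compared because lipid-transfer protein genes often lie in tandem. Of the 10 protein-coding genes nearest to AT1G62510 in the gene order, 6 were measured and none passed, with log2 differences from -0.15 for AT1G62490 to 0.09 for AT1G62480. AT1G62520 and AT1G62530, on the other side of AT1G62510, were at 0.01 and -0.04, and AT1G62450 at -0.02. Of the 10 protein-coding genes nearest to AT5G55450, only AT5G55400 was measured, at -0.29 (limma, adjusted p = 0.417). The DIR1-like genes beside it, AT5G55410 and AT5G55460, were not analysed here.

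Surface lipid genes were listed because lipid-transfer proteins are known for the cuticle, and 3 of 41 were measured, so the list is barely covered. None passed for the mean of both alleles. AT5G61590 (DEWAX), a transcription factor known to repress wax synthesis, was at 9.56 and 9.50 in wild type, 10.11 and 10.11 in camta3-1, and 9.65 and 9.66 in camta3-2. All mutant arrays were above wild type, as for 7.89% of all probe sets. The log2 difference was 0.35 for the mean of both alleles (limma, adjusted p = 0.143) and 0.58 in camta3-1 (limma, adjusted p = 0.0554). The camta3-1 arrays were above those of camta3-2, and the alleles did not overlap for 34.6% of all probe sets. The log2 difference between the alleles, -0.45, did not pass (limma, adjusted p = 0.778). Under 4 alternative settings, given in the closing part, DEWAX passed in camta3-1. The cutin synthase-type gene AT5G33370 (CUS2) was at 0.26 and the wax ester synthase gene WSD1 at 0.04, both with overlapping groups. In the guard cell factor gene FMA (FAMA), the measured gene of 5 guard cell markers, the log2 difference was -0.43 (limma, adjusted p = 0.191).

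The genes whose profiles over the 6 arrays were most like each of the pair were taken by the root mean square difference between profiles, each centred on its own mean. This is a description, since the genes were ranked on the same arrays. Closest to AT5G55450 were AT2G39210, of the major facilitator family, the malectin-like kinase gene AT5G59670, the heavy-metal-associated domain gene AT5G52750, the cytochrome P450 gene CYP71B23 and the secreted cysteine-rich repeat gene AT3G22060. Their root mean square differences were 0.30, 0.31, 0.35, 0.38 and 0.41, against a median of 1.29 over the 13285 other loci. All 5 were higher in both alleles, as AT5G55450 was. Between the alleles, all 5 had a lower mean in camta3-2 than in camta3-1, and none passed. Their log2 differences ran from -0.19 for AT5G52750 (limma, adjusted p = 0.915) to -0.76 for AT3G22060 (limma, adjusted p = 0.778).

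Closest to AT1G62510 were AT5G47330, the leucine-rich repeat gene AT2G34930, the thionin gene THI2.1, which is known as a jasmonate response gene, the transporter gene AT5G44050 and the cold response gene COR15A. Their root mean square differences were 0.22, 0.30, 0.33, 0.36 and 0.38, against a median of 0.88. All 5 were lower in both alleles. COR15A was at 11.95 and 11.79 in wild type, 10.43 and 10.37 in camta3-1, and 11.36 and 10.47 in camta3-2, so its first camta3-2 array was nearest to wild type.

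By Pearson correlation over the same 6 arrays, other genes came first, because this measure disregards the size of a difference. For AT5G55450 they were FLDH, AT5G47250, AT4G11000, AT1G31460 and Hsp70-2, with correlations of 0.986 to 0.989 and log2 differences from wild type of 0.24 to 0.73. For AT1G62510 they were AT1G15410, AT5G05890, AT4G18810, AT5G48900 and AT2G42220, with correlations of 0.986 to 0.994 and log2 differences of -0.25 to -0.74. None of the 5 genes was shared between the measures for either gene. With 6 arrays in 3 groups, 54 loci correlated above 0.95 with AT5G55450 and 108 with AT1G62510.

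**Figure D4:**
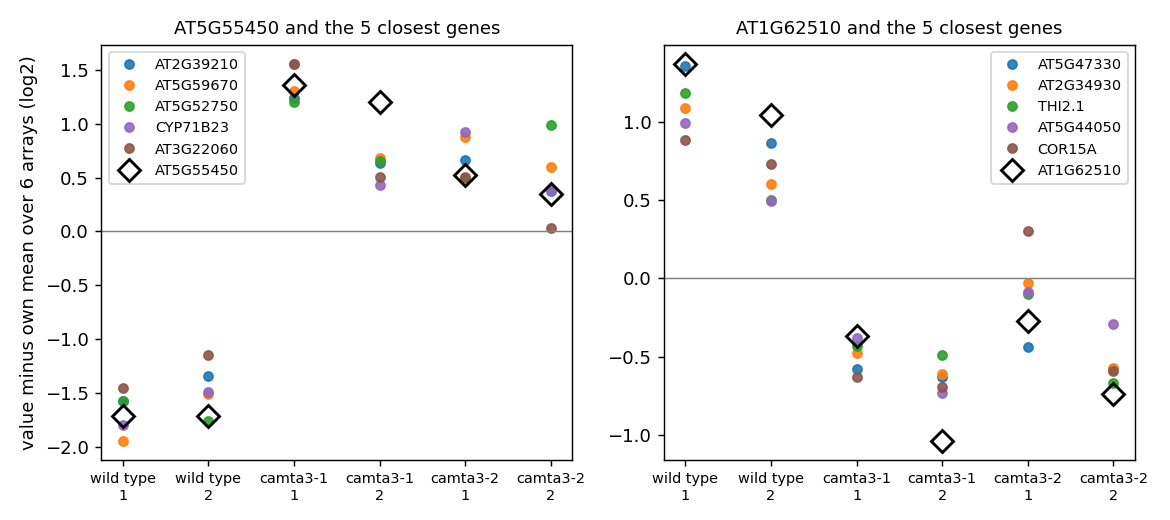
Each panel plots, per array, the log2 value minus the gene's own mean over the 6 arrays for 1 of the pair (open diamonds) and for the 5 loci with the smallest root mean square difference from it (filled circles). On the left all genes are below their mean on both wild-type arrays and above it on the mutant arrays. On the right all are above it in wild type and all but COR15A on the first camta3-2 array are below it in the mutants.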

How the data were processed

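Each RNA sample was hybridised to 1 Affymetrix array. The authors deposited 1 log2 value per probe set and array, produced with RMA and Partek, per the submitters' processing notes. RMA subtracts background, forces the arrays to 1 distribution and condenses probes into probe sets, so differences of dim probe sets are shrunken and a shift common to all transcripts is removed. For tool versions, tissue and genome build the sources used here give nothing.

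From the 22810 probe sets, 64 controls were left out. The platform annotation gave 1 gene for 13513 probe sets, and 13286 loci were matched in the TAIR10.1 gene table, which served for names and gene order alone. The brightest probe set stood for a locus. The comparisons used limma 3.58.1 under R 4.3.3, with 1 mean per group over all 6 arrays and empirical Bayes moderation (3 residual and 4.43 prior degrees of freedom). The p-values are two-sided and were adjusted by Benjamini-Hochberg over 22746 probe sets, with a threshold of 0.05. The fit was tested on simulated data. Precision is limited by the number of arrays, and p-values measure the spread between these arrays.

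The 2 genes and all gene lists were chosen with earlier results of these data known. The lists were recalled by locus, without a curated table. Named list genes were those past the threshold and the 4 with the largest differences per list. The genes measured within 5 loci of either gene were also included. So were the 5 loci closest to each gene by root mean square difference, the 5 by Pearson correlation, and the loci next to each gene in the order of differences. Other genes were named after their values were seen. Alternatives were centring on array medians, cyclic loess, leaving out probe sets under the 40th percentile of means, a trended and robust prior, an ordinary linear model, a replicate block, fits of the compared groups, adjustment over probe sets with 1 gene, and leaving out arrays. Promoter letters were not analysed here. Plots were made in matplotlib 3.10.9 with Python 3.11.15.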

Additional observations from a re-analysis of the deposited data

How the results depend on the processing

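Over 11 alternatives each, AT5G55450 stayed 2.49 to 2.65 above wild type for the mean of both alleles, and AT1G62510 stayed at -2.09 to -1.53, each within 1 pooled SD of the reported value. These directions chose the genes, and leaving out 1 array cannot turn them. The allele difference of AT5G55450 ran from -0.93 to -0.76 under 16 alternatives and did not pass under any (limma or ordinary linear model, adjusted p = 0.229 to 0.908). Settings that keep the values and the mutant arrays leave this difference unchanged. Leaving out mutant arrays cannot turn its sign, since the alleles did not overlap. Only cyclic loess and median centring could have turned it, and they gave -0.84 and -0.80. The allele difference of AT1G62510 ran from -0.14 to 0.53 when 1 array was left out. It changed sign to -0.14 without camta3-1 replicate 2 and to -0.03 without camta3-2 replicate 1. No other lipid-transfer protein gene passed under the settings that keep all arrays. With both mutant arrays numbered 1 left out, 5, 4 and 4 passed for the mean, camta3-1 and camta3-2, and with those numbered 2 left out, 1, 1 and 3, with 1 between the alleles. Leaving out 1 array gave 0 to 1 for the mean. DEWAX passed in camta3-1 with cyclic loess (adjusted p = 0.0439), the filter (0.0476), the trended prior (0.0398) and the replicate block (0.0486).

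Counts over all probe sets moved more. They were 320, 246, 167 and 1 for the mean, camta3-1, camta3-2 and the allele contrast. The ordinary linear model called 0 in all 4, with 2348, 2174, 2042 and 1210 at an unadjusted p under 0.05. Leaving out 1 array gave 5 to 458, 2 to 333, 5 to 270 and 1 to 7. The lowest were 5, 2 and 5 without wild type replicate 1. Without wild type replicate 2 they were 60, 38 and 42, without camta3-1 replicate 1 camta3-1 had 114, and without camta3-2 replicate 1 and 2 camta3-2 had 11 and 55 and the allele contrast 2 and 7. Without either camta3-1 array camta3-2 had 270. The fit of camta3-2 with wild type alone called 270, and adjusting over probe sets with 1 gene left 131, 68 and 52. Without both mutant arrays numbered 1 the counts were 688, 496, 439 and 8, and without those numbered 2 they were 821, 617, 511 and 33. The causes were not tested. The deviations of same-numbered arrays correlated at 0.402 between the alleles, 0.134 between camta3-2 and wild type and -0.04 between camta3-1 and wild type, and the numbers were not taken to pair the arrays. With the replicate block the counts were 493, 430 and 280, and the allele difference of AT5G55450 had adjusted p = 0.275 and that of AT1G62510 0.677. Fits of 2 groups do not exist for the mean of both alleles. Promoter letters were not run, for want of a sequence table. The genes most like each of the pair depend on the measure, as described. Dim probe sets and the 2 arrays per group limit all of these values.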
